A study of Mus musculus with 6 samples.

Results

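The NFAT and calcineurin genes are the 8 genes Nfatc1, Nfatc2, Nfatc3, Nfat5, Rcan1, Ppp3ca, Ppp3cb and Ppp3cc, taken by name, of 18194 genes measured. They include the NFAT transcription factors, the catalytic subunits of calcineurin and a calcineurin regulator. Every probe set naming a single gene of the 8 was used, which gave 31 of the 45101 probe sets on the array. The cells were splenic CD4 T cells of C57BL/6 mice. Th2-1st cells were effector Th2 cells, activated with anti-TCR and anti-CD28 mAb and harvested after 5 days with IL-2 at 25 U/ml together with IL-4 at 100 U/ml. Th2-4th cells came from the same kind of culture, rested for 2 days without added cytokine and then activated with anti-TCR mAb, IL-2 and anti-IL-4 mAb for 5 days, a cycle the labels say was repeated 3 times, and the cultures were therefore unlike in IL-4 as well as in age. All cells were transfected, with control siRNA or GATA3 siRNA, and 24 h later were left unstimulated or stimulated for 4 h with immobilized anti-TCR mAb. Each culture has 3 arrays, namely control siRNA unstimulated, control siRNA stimulated and GATA3 siRNA stimulated, with no unstimulated GATA3 siRNA array. A single siRNA sequence was used against GATA3, and the labels do not say how many mice gave the cells.

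Calcineurin is a phosphatase that calcium and calmodulin switch on after the T cell receptor is engaged. It removes phosphate from NFATc proteins, which then enter the nucleus and act on cytokine genes, often together with AP-1. NFAT5 is the member of the family that is not regulated by calcineurin and is known for its response to osmotic stress, whereas RCAN1 binds calcineurin and regulates it. NFAT genes are themselves regulated in T cells, and NFATc1 is known for a short isoform transcribed from an inducible promoter.

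With a single array for every condition there were no replicates to check a difference against, and p-values were not computed. A ratio over 2 or under 0.5 counted as a change (1 on the log2 scale), and is called here a rise or a fall. Beside a ratio stands the spread, a robust SD of the log2 ratio among the 500 genes nearest in signal, which holds real changes and is no replicate error. The deposited signals had the same trimmed mean on every array, and the median signal of an array ran from 61.8 to 74.2. Of the 31 probe sets, 20 lay above the array median on all 6 arrays, 6 on some arrays and 5 on no array. For each of the 8 genes, the probe set of highest mean log2 signal was above the median on all 6 arrays. Gata3, the target of the siRNA, went from 4883 under control siRNA to 1798 under GATA3 siRNA in stimulated Th2-1st cells and from 9261 to 2853 in stimulated Th2-4th cells, log2 ratios of -1.44 and -1.70. The 5 T cell markers measured (Cd3d, Cd3e, Cd3g, Cd4 and Cd28) were above the median on every array, with summed signals from 29965 to 66253. The sum of 5 Th2 markers (Gata3, Il4, Il5, Il13 and Ccr8) was 4066 and 6383 on the unstimulated arrays and from 42296 to 135399 on the stimulated ones. The sums were from 108 to 199 for 4 B cell markers, from 190 to 326 for 5 myeloid markers and from 251 to 613 for 3 CD8 T and NK cell markers, with no marker at 0. In RNA of a whole culture, fewer cells with a transcript and less of it per cell cannot be told apart.

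**Figure D1:**
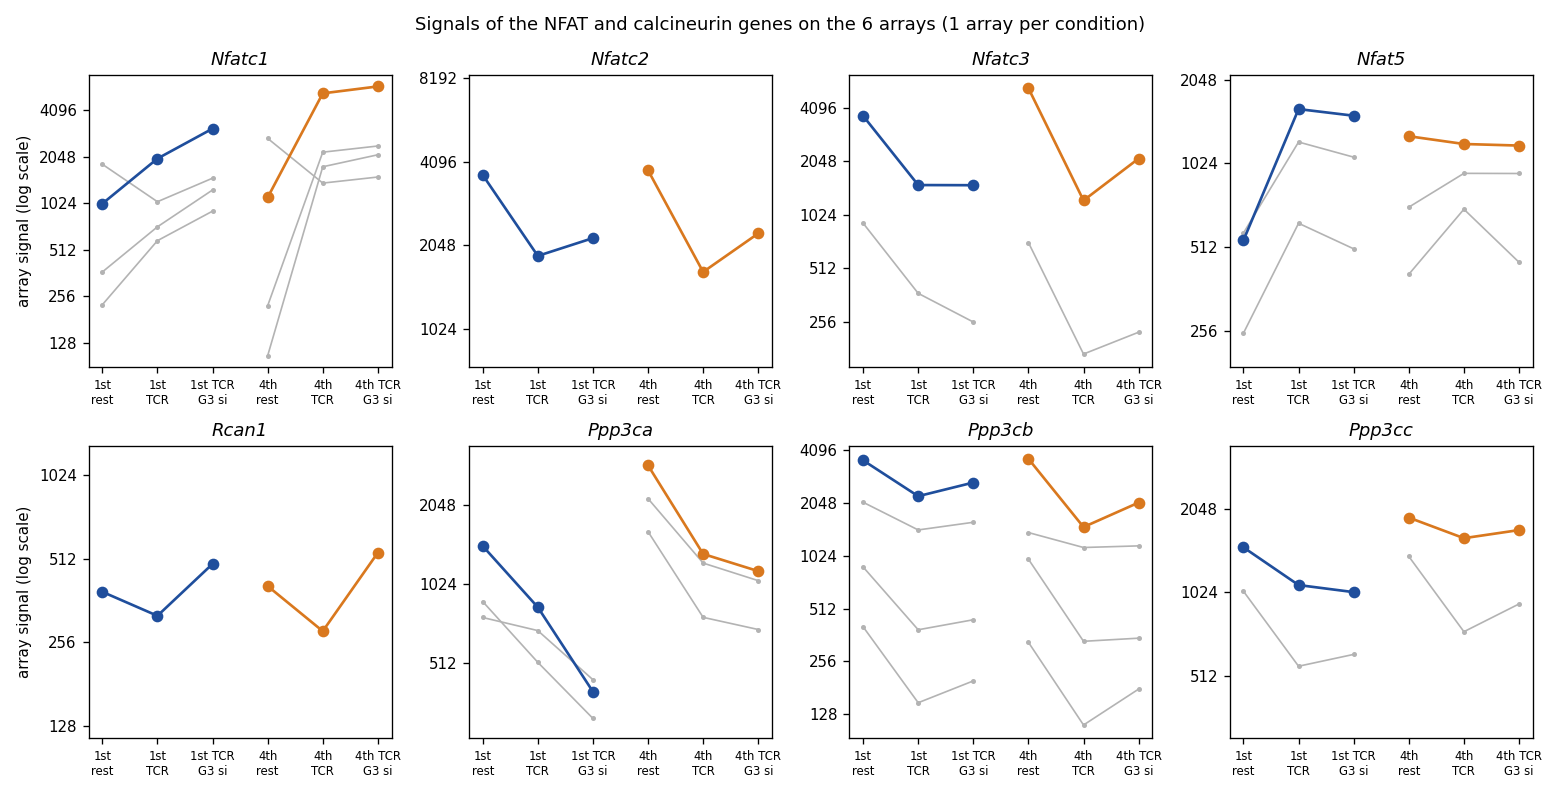
Signal of each gene on the 6 arrays, with 1 array per condition, on a log axis that differs between panels (rest, unstimulated control siRNA; TCR, stimulated control siRNA; G3 si, stimulated GATA3 siRNA). Coloured points are the probe set standing for the gene (blue Th2-1st, orange Th2-4th) and grey points its other probe sets above the array median on all 6 arrays. Nfatc1 read 5284 in stimulated against 1119 in unstimulated Th2-4th cells, while Nfatc2, Nfatc3, Ppp3ca and Ppp3cb were lower after stimulation in both cultures.

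The anti-TCR response split the NFAT genes. In Th2-4th cells Nfatc1 rose 4.72-fold after stimulation while Nfatc3 fell to a signal 4.28-fold lower and Nfatc2 to one 2.32-fold lower. In Th2-1st cells Nfat5 rose 2.97-fold and Nfatc3 fell by a factor of 2.45. The calcineurin catalytic subunits Ppp3ca and Ppp3cb fell in Th2-4th cells, 2.17-fold and 2.45-fold lower, where 21.6% of all genes fell. In Th2-1st cells, where 17.5% of all genes rose and 16.9% fell, none of the calcineurin subunit genes passed 2-fold by its standing probe set. Other Ppp3cb probe sets above the median on all arrays did pass it there, 1427468_at at -1.19 and 1428474_at at -1.44.

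Nfatc1 read 1020 in unstimulated, 1998 in stimulated and 3123 in stimulated GATA3 siRNA Th2-1st cells, and 1119, 5284 and 5860 in the same order in Th2-4th cells. The unstimulated arrays were the lowest of each culture, and each array of the Th2-4th culture read higher than its Th2-1st counterpart. The log2 anti-TCR ratio was 0.97 in Th2-1st cells, just inside the 2-fold limit, with a spread of 0.76, and 2.24 in Th2-4th cells, with a spread of 0.90. Of the 11186 genes above the array median in the Th2-4th pair, 4.51% had a higher ratio than Nfatc1.

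Nfatc1 (chr18:80606205-80713071, RefSeq build GRCm38.p6, as for all positions here) has 5 probe sets, which did not move together. With stimulation, probe set 1428479_at went from 1837 to 1051 in Th2-1st and from 2702 to 1387 in Th2-4th cells, log2 ratios of -0.81 and -0.96. Probe set 1425761_a_at went from 368 to 723 in Th2-1st and from 223 to 2199 in Th2-4th cells, log2 ratios of 0.97 and 3.30. Probe set 1447084_at went from 226 to 588 in Th2-1st and from 106 to 1769 in Th2-4th cells, log2 ratios of 1.38 and 4.07. Thus 4 of the 5 probe sets, among them 1447085_s_at (0.34 and 3.84, below the median on 1 array), had positive ratios in both cultures, past 2-fold in all 4 in Th2-4th cells, and 1 had negative ratios short of 2-fold. Between 1417621_at, which stands for the gene, and 1428479_at the log2 ratios differed by 1.78 in Th2-1st cells, and by 3.20 in Th2-4th cells. In the GATA3 siRNA comparisons the difference was 0.14 and 0.02. The annotation used here names the gene of each probe set but not the transcripts it detects, so no probe set was assigned to an isoform.

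**Figure D2:**
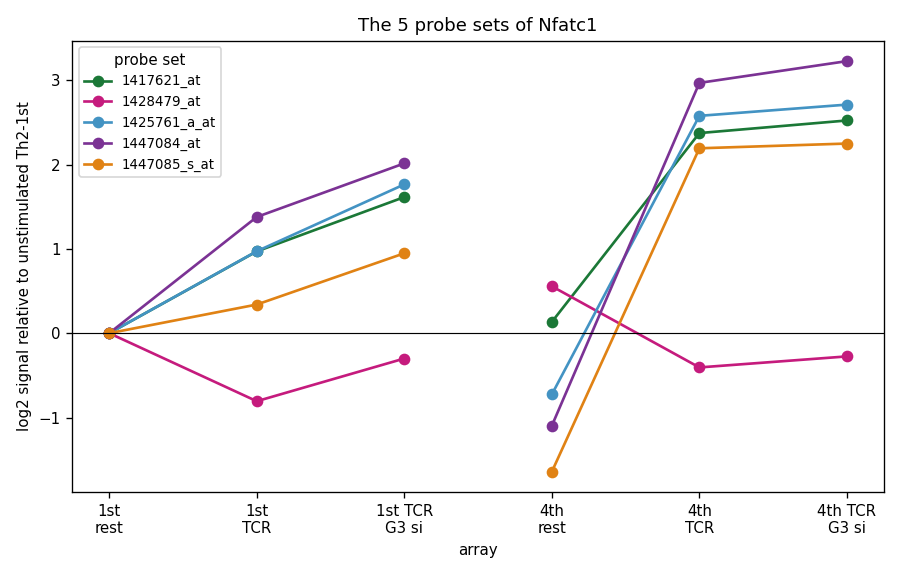
Log2 signal of the 5 Nfatc1 probe sets on the 6 arrays, each relative to its own signal in unstimulated Th2-1st cells (rest, unstimulated control siRNA; TCR, stimulated control siRNA; G3 si, stimulated GATA3 siRNA). After stimulation 4 lines go up in both cultures, by 2.24 to 4.07 in Th2-4th cells, and the line of 1428479_at goes down, by 0.81 and 0.96.

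Nfatc2 (chr2:168476410-168601657), which encodes the NFAT protein that resting T cells hold in the cytoplasm, went from 3668 to 1875 with stimulation in Th2-1st and from 3814 to 1641 in Th2-4th cells. The log2 ratios were -0.97 (spread 0.73) and -1.22 (spread 0.91), so by this probe set it was lower on both stimulated arrays and past 2-fold in Th2-4th cells. The value rests on 1 probe set, since the other 5 naming Nfatc2 were below the array median on 2 or more arrays, and the mean over all 6 was 0.21 in Th2-1st cells, of the opposite sign, and -0.91 in Th2-4th cells, inside 2-fold. The 5 dim probe sets had signals from 3.20 to 110 over the 6 arrays. Nfatc3 (chr8:106058818-106130537), another calcineurin-regulated member, went from 3698 to 1509 in Th2-1st and from 5291 to 1236 in Th2-4th cells. Its log2 ratios were -1.29 (spread 0.80) and -2.10 (spread 0.90), and its second probe set gave -1.31 and -2.08. Nfatc3 thus fell in both cultures by both probe sets, and 4.68% of the genes above the median had a lower ratio in Th2-4th cells.

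The upstream window of Nfatc2 that lies next to the start of its gene is shown because it held several copies of the core that NFAT proteins recognise, GGAAA, which was searched on both strands together with the GATA core, GATAA. The windows are the 250 bases upstream of a start in RefSeq, build GRCm38.p6, 5′ to 3′ in the direction of transcription, with matches in capitals (GGAAA or its complement TTTCC, and GATAA or its complement TTATC). A match is a description and not a binding site. Of 32851 windows of 27025 genes, 55.57% held GGAAA and 22.58% GATAA, and 21.38% held GGAAA more than once. Windows were read for 5 of the 8 genes, 8 windows in all, of which 6 held GGAAA and 1 held GATAA. None was listed for Ppp3ca or Ppp3cc. Nfatc1 was not searched, so these counts do not cover it. The Nfatc2 window (minus strand, chr2:168601658-168601907) held 3 copies of GGAAA.
Nfatc2: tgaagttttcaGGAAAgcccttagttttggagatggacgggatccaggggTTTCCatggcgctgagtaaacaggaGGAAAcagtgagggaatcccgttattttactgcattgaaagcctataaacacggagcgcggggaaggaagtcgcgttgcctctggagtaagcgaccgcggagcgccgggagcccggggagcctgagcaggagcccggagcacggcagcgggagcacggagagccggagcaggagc

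Nfat5 (chr8:107293435-107379517) passed 2-fold after stimulation in Th2-1st cells only. It read 541 in unstimulated, 1607 in stimulated and 1521 in GATA3 siRNA Th2-1st cells, against 1283, 1203 and 1187 in Th2-4th cells. The unstimulated Th2-1st array was the low one, and the other 5 lay between 1187 and 1607. The log2 anti-TCR ratio was 1.57 (spread 0.73) in Th2-1st cells and -0.09 (spread 1.05) in Th2-4th cells, a difference of -1.66 that has no test. The other 2 probe sets above the median on all arrays gave 1.09 and 1.31 in Th2-1st cells against 0.40 and 0.78 in Th2-4th cells. All 3 therefore passed 2-fold in Th2-1st cells and none did in Th2-4th cells, although the sign in Th2-4th cells depended on the probe set. With the 3 dim probe sets, whose signals ran from 2.42 to 111, averaged in, the Th2-1st ratio was 0.96, inside 2-fold. In the Th2-1st pair 5.46% of the genes above the median had a higher ratio than Nfat5.

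Rcan1 (chr16:92391951-92466169), the regulator of calcineurin, read 389 in unstimulated, 318 in stimulated and 490 in GATA3 siRNA Th2-1st cells, with 408, 280 and 538 in the same order for Th2-4th cells. In both cultures the stimulated control array was the lowest and the GATA3 siRNA array the highest. The log2 anti-TCR ratios of -0.29 and -0.54 were inside 2-fold. Its second probe set, 1416601_a_at, was above the median on 1 array only and is not read further. Rcan1 is known to have separate first exons, one of which is transcribed from a promoter that calcineurin and NFAT activate, and both windows listed for it are shown because they differed in the NFAT core. The window chr16:92466170-92466419 (minus strand, first of the lines) held no GGAAA, and the window chr16:92400079-92400328 (minus strand, the other line), inside the gene, held 3 copies.
Rcan1 outer window: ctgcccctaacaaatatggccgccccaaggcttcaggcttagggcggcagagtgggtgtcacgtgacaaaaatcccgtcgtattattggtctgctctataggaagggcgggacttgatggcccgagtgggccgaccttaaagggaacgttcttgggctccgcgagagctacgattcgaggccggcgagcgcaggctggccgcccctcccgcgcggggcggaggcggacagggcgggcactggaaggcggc
Rcan1 inner window: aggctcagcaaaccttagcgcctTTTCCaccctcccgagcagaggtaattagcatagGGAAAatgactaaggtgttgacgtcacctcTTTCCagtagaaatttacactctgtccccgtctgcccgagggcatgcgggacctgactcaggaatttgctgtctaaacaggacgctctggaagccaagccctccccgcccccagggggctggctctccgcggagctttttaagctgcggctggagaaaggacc

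Among the catalytic subunits of calcineurin, Ppp3ca (chr3:136669714-136937727) went from 1429 to 836 with stimulation in Th2-1st and from 2894 to 1333 in Th2-4th cells, log2 ratios of -0.77 and -1.12. Its other 2 probe sets gave -0.17 and -0.77 in Th2-1st cells against -0.81 and -1.08 in Th2-4th cells. All 3 were thus lower on both stimulated arrays. Ppp3cb (chr14:20499364-20546573) went from 3582 to 2237 in Th2-1st and from 3654 to 1492 in Th2-4th cells, log2 ratios of -0.68 and -1.29. Its 4 probe sets above the median on all arrays ranged from -1.44 to -0.52 in Th2-1st and from -1.57 to -0.28 in Th2-4th cells, so all were lower after stimulation, by different amounts, and the mean over all 5 probe sets in Th2-4th cells was just inside 2-fold, at -0.997. Ppp3cc (chr14:70217864-70289536) went from 1485 to 1087 in Th2-1st and from 1901 to 1603 in Th2-4th cells, log2 ratios of -0.45 and -0.25, and its other probe set gave -0.90 in both cultures. The Ppp3cb window (minus strand, chr14:20546574-20546823) is shown as the only window among the 8 windows read with the GATA core, which it held once beside 3 copies of GGAAA.
Ppp3cb: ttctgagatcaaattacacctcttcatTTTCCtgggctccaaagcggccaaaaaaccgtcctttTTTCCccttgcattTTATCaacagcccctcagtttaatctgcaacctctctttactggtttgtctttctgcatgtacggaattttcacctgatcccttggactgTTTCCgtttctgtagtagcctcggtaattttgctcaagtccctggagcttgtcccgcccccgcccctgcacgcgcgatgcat

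Over the 8 genes, 1 rose and 1 fell in Th2-1st cells, where 17.5% of all genes rose and 16.9% fell. Among the 11022 genes whose higher signal of the pair was above its array median these shares were 10.7% and 16.7%. In Th2-4th cells 1 of the 8 rose and 4 fell, beside 18.7% and 21.6% of all genes, and 14.6% and 21.0% of the 11186 genes above the median. The median log2 ratio of the 8 genes was -0.56 in Th2-1st cells, where that of all genes was -0.01, and -0.83 in Th2-4th cells, where it was -0.10. Of the 20 probe sets above the median on all arrays, 4 rose and 4 fell in Th2-1st cells and 3 rose and 8 fell in Th2-4th cells, and probe sets of a gene are not independent.

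**Figure D3:**
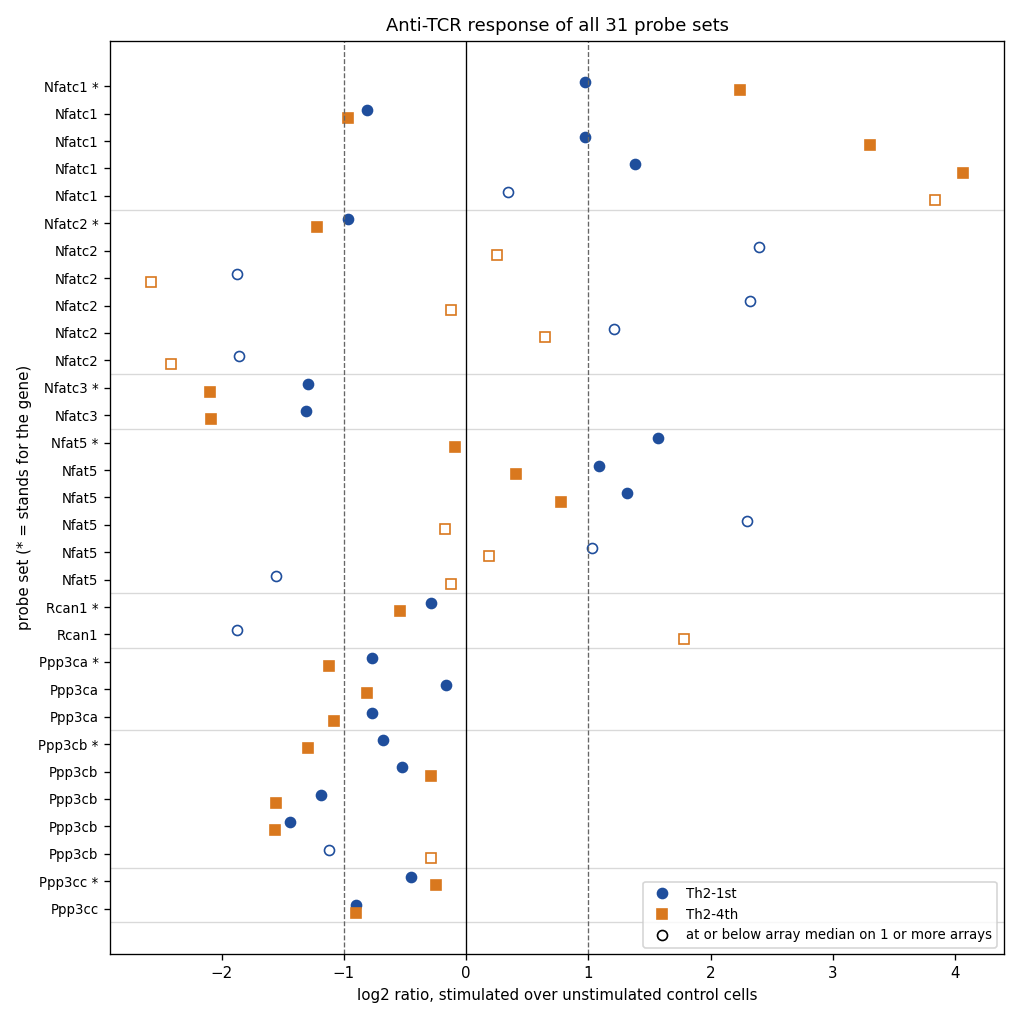
Log2 anti-TCR ratio of each of the 31 probe sets in Th2-1st (blue circles) and Th2-4th (orange squares) cells, with the 2-fold limits dashed. Open symbols mark probe sets at or below the array median on 1 or more arrays, and an asterisk marks the probe set standing for the gene. Nfatc3, Ppp3ca and Ppp3cb lie left of 0 by every filled symbol, 4 of 5 Nfatc1 probe sets lie right of 0 and the filled Nfat5 symbols are past 2-fold in Th2-1st cells only.

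With GATA3 siRNA the log2 ratios of the 8 genes ran from -1.07 to 0.94, while the anti-TCR ratios ran from -2.10 to 2.24. In Th2-1st cells Ppp3ca fell, with a signal 2.09-fold lower, and the other 7 genes were inside 2-fold, and in Th2-4th cells all 8 were inside 2-fold. The GATA3 siRNA arrays were set against the same stimulated control arrays as the anti-TCR responses, so an unusual signal on a control array enters both comparisons. The 2 knockdown comparisons share no array but used the same siRNA.

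Between control and GATA3 siRNA, Ppp3ca went from 836 to 399 in Th2-1st and from 1333 to 1147 in Th2-4th cells. The log2 ratios were -1.07 (spread 0.29) and -0.22 (spread 0.28). Its other 2 probe sets gave -0.62 and -0.71 in Th2-1st cells against -0.22 and -0.15 in Th2-4th cells. All 3 were lower on both GATA3 siRNA arrays, and 1 of them, in Th2-1st cells, passed 2-fold, so that their mean of -0.80 there did not. Of the 10981 genes above the median in the Th2-1st pair, 2.04% had a lower ratio than Ppp3ca.

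All 5 Nfatc1 probe sets were higher with GATA3 siRNA, by log2 ratios from 0.51 to 0.79 in Th2-1st cells, where the spread at the signal of 1417621_at was 0.17, and from 0.06 to 0.26 in Th2-4th cells, where it was 0.21. The probe set that was lower after stimulation, 1428479_at, was among them, at 0.51 and 0.13. Rcan1 was higher in both cultures, at 0.62 (spread 0.28) and 0.94 (spread 0.30), short of 2-fold, and 3.62% of the genes above the median had a higher ratio in Th2-4th cells.

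Nfatc3 gave 0.00 in Th2-1st cells against 0.78 (spread 0.24) in Th2-4th cells, whereas its second probe set gave -0.54 and 0.41. Nfatc2 gave 0.21 and 0.46, Ppp3cb 0.26 and 0.46, and Ppp3cc -0.08 and 0.10. Their probe sets differed. The mean over those of Nfatc2, most of them dim, was 0.28 and -0.11. The other Ppp3cb probe sets above the median on all arrays gave from 0.14 to 0.41 in Th2-1st and from 0.03 to 0.68 in Th2-4th cells. The second Ppp3cc probe set gave 0.14 and 0.33. Nfat5 gave -0.08 and -0.02 by the probe set standing for it and -0.31 and -0.63 by 1439328_at, so its probe sets differed in size.

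No gene of the 8 rose with GATA3 siRNA in either culture. Over all genes 13.3% rose and 7.49% fell in Th2-1st cells, and 10.6% rose and 10.6% fell in Th2-4th cells. Among genes above the median, 4.41% rose and 2.26% fell of 10981 in Th2-1st cells, and 3.00% rose and 3.49% fell of 11045 in Th2-4th cells. The median log2 ratio of the 8 was 0.10 and 0.31, against 0.05 and 0.01 over all genes.

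**Figure D4:**
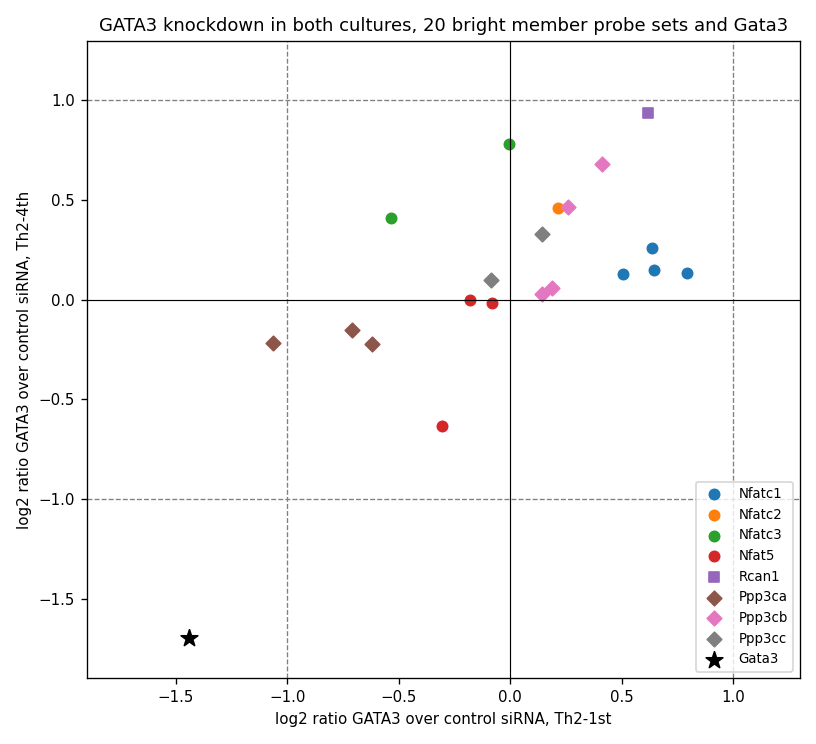
Log2 ratio of GATA3 over control siRNA in stimulated Th2-1st cells (x axis) and Th2-4th cells (y axis) for the 20 probe sets above the median on all 6 arrays, with Gata3 as a star and the 2-fold limits dashed. The 3 Ppp3ca points lie below 0 in both cultures, the Rcan1 point and the 4 Nfatc1 points above 0 in both, and only 1 point of the 8 genes, a Ppp3ca probe set, is past a dashed line.

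Between the cultures, Nfat5 and Ppp3ca were higher in Th2-4th than in Th2-1st cells before stimulation, and Nfatc1 after it. Unstimulated Nfat5 read 1283 in Th2-4th and 541 in Th2-1st cells, a 2.37-fold rise with a log2 ratio of 1.25 (spread 0.67), and its other 2 probe sets above the median gave 0.31 and 0.70. Unstimulated Ppp3ca read 2894 and 1429, a log2 ratio of 1.02 (spread 0.60), and its other 2 probe sets gave 1.50 and 0.88. The 3 Ppp3ca probe sets ran the same way after stimulation too, from 0.57 to 0.85, while those of Nfat5 did not. With the arrays centred on their medians neither gene passed 2-fold in the unstimulated pair, at 0.999 for Nfat5 and 0.77 for Ppp3ca.

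Stimulated Nfatc1 read 5284 in Th2-4th and 1998 in Th2-1st cells, a 2.64-fold rise with a log2 ratio of 1.40 (spread 0.55). All 4 Nfatc1 probe sets with positive anti-TCR ratios passed 2-fold here, at 1.40 to 1.85, and 1428479_at gave 0.40. Without stimulation the same 4 gave from -1.64 to 0.13, and 1428479_at gave 0.56. The higher probe set ratios of the stimulated pair therefore did not stand in the unstimulated pair.

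The difference in anti-TCR response between the cultures follows from these same 4 control arrays. On the log2 scale, Th2-4th minus Th2-1st, it was 1.27 for Nfatc1, -0.80 for Nfatc3, -0.61 for Ppp3cb and -1.66 for Nfat5, with no test.

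Of the 8 genes 2 rose and none fell in the unstimulated pair, beside 19.5% and 12.3% of all genes, and 11.9% and 9.22% of the 10872 genes above the median. In the stimulated pair 1 rose and none fell, beside 17.2% and 12.7% of all genes, and 11.4% and 7.93% of the 11130 above the median. The summed signal of the 5 T cell markers also ran higher in Th2-4th cells, at 66253 against 38328 unstimulated and 53819 against 29965 stimulated. Cd8b1 ran lower in Th2-4th cells, at 110 against 342 unstimulated and 163 against 313 stimulated. Cd8a read 124 against 126 unstimulated and 217 against 162 stimulated. The part of these markers in the ratios was not tested.

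The other genes of the family were led by Ppp3r1, the regulatory subunit of calcineurin, which went from 2319 to 2876 with stimulation in Th2-1st and from 1990 to 3772 in Th2-4th cells. Its log2 ratios were 0.31 and 0.92, and its second probe set gave -0.21 and -0.79, so the probe sets disagreed in sign. Rcan3, a relative of Rcan1, went from 848 to 418 in Th2-1st and from 678 to 389 in Th2-4th cells, log2 ratios of -1.02 and -0.80, and its second probe set gave 0.29 and -0.31. Nfatc4 was above the median on 4 of the 6 arrays at signals up to 142, and Ppp3r2 and Rcan2 were above it on none. Among 10 kinases listed for phosphorylation of NFAT proteins, 0 passed 2-fold in Th2-1st cells after stimulation and 1 fell in Th2-4th cells, the p38 kinase gene Mapk14, at -1.01. Gsk3b, the kinase GSK3 beta, gave -0.90 and -0.91. None of the 10 passed 2-fold in the knockdown or culture comparisons. All 10 kinase genes were above the array median. Among all genes above it, the share past 2-fold in a given direction ran from 2.26% to 4.41% for a knockdown comparison. That share was 7.93% to 11.9% for a culture comparison and 10.7% to 21.0% for an anti-TCR response. At the knockdown shares, a count of 0 among 10 genes is not unusual.

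Of the 9 genes listed for proteins that bind calcineurin or NFAT, 7 had a probe set of their own. None passed 2-fold in Th2-1st cells after stimulation, where 17.5% of all genes rose and 16.9% fell. In Th2-4th cells 1 rose and 2 fell, beside 18.7% and 21.6% of all genes. Akap5, an anchoring protein for calcineurin, fell there from 156 to 52.5, the second signal below the array median. Nfatc2ip, which binds NFATc2, fell from 1367 to 658 (-1.05), while Lrrk2, which rose at 1.63, was below the median on all arrays. Fkbp1a, which encodes the protein through which tacrolimus blocks calcineurin, gave -0.14 and 0.36.

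In the list of calcium entry and calmodulin genes, 18 of 22 had a probe set of their own. In Th2-1st cells 2 rose and 6 fell after stimulation, where 17.5% of all genes rose and 16.9% fell. In Th2-4th cells 2 rose and 3 fell, where 18.7% of all genes rose and 21.6% fell. Orai1, the pore subunit of the store-operated calcium channel, went from 779 to 2119 in Th2-1st and from 583 to 3838 in Th2-4th cells, log2 ratios of 1.44 and 2.72. Its relative Orai2 went from 591 to 65.9 in Th2-1st and from 1196 to 263 in Th2-4th cells, ratios of -3.17 and -2.19. The signal of 65.9 was little above the median of that array, 61.8, and also enters the Orai2 ratios of 1.26 and 2.00 below. The pore genes thus ran in opposite directions in both cultures. Atp2a2, which pumps calcium into the endoplasmic reticulum, rose at 1.13 and 2.36. The IP3 receptor gene Itpr3, through which calcium leaves the endoplasmic reticulum, fell at -1.95 and -2.39. Stim1, the calcium sensor of that store, fell at -1.65 in Th2-1st cells and gave -0.96 in Th2-4th cells. Atp2b4, a calcium pump of the plasma membrane, fell at -2.12 and gave -0.22, and Saraf, which restrains the channel, gave -0.98 and fell at -1.88. With GATA3 siRNA Orai2 rose at 1.26 in Th2-1st cells and gave 0.07 in Th2-4th cells, and Orai1 gave -0.24 and fell at -1.02. Without stimulation 2 of the 18 were over 2-fold higher and 1 lower in Th2-4th cells, beside 19.5% and 12.3% of all genes. In the stimulated pair, where 17.2% of all genes were higher and 12.7% lower, 5 of the 18 were over 2-fold higher in Th2-4th cells, with Orai2 at 2.00 and Atp2b4 at 1.79, and 0 were lower.

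The 12 cytokine and ligand genes listed as NFAT targets all rose in both cultures, where 17.5% and 18.7% of all genes rose. For 8 of the 12 the unstimulated signal was below the array median in 1 or both cultures, so their ratios are lower bounds with that signal raised to the array median. The median log2 ratio was then at least 7.03 in Th2-1st cells and at least 6.55 in Th2-4th cells, against -0.02 and -0.03 over all genes treated the same way. Il3 went from 1.75 to 44252 in Th2-1st and from 17.4 to 55479 in Th2-4th cells. Il2 went from 4.28 to 16666 in Th2-1st and from 11.3 to 21675 in Th2-4th cells. Il4, the cytokine of Th2 cells, was above the median unstimulated and went from 504 to 34734 in Th2-1st and from 729 to 45980 in Th2-4th cells. The direction was the same in all 12 genes, and Nfatc1 and Nfat5 were the only genes of the 8 to rise in either culture. With GATA3 siRNA Il5 fell in both cultures (-4.86 and -2.04), Il13 fell in Th2-1st cells (-3.39) and gave -0.96 in Th2-4th cells, and Tnf rose in Th2-1st cells (1.86) and gave 0.55 in Th2-4th cells. The other 9 were inside 2-fold in both cultures.

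The 13 genes listed for NFAT acting without AP-1, a state linked to T cell hyporesponsiveness, had 7 that rose and 1 that fell in Th2-1st cells, while 8 rose and 1 fell in Th2-4th cells, beside the same shares of all genes as above (17.5% and 16.9%, and 18.7% and 21.6%). With signals below the array median raised to it, 7 rose in Th2-4th cells. Egr2, a transcription factor of that state and of activation in general, went from 83.1 to 10922 in Th2-1st and from 101 to 26871 in Th2-4th cells. Nr4a1, an orphan nuclear receptor induced by the T cell receptor, went from 99.5 to 6860 in Th2-1st and from 111 to 14331 in Th2-4th cells. Dgka, a diacylglycerol kinase that limits receptor signalling, was the gene that fell, at -1.17 and -1.56. With GATA3 siRNA Ctla4, an inhibitory receptor, fell at -1.01 in Th2-1st cells and gave -0.11 in Th2-4th cells. Lag3 gave -0.01 in Th2-1st cells and rose at 1.07 in Th2-4th cells, from 134 to 283. Rnf128, a ubiquitin ligase, read 571 in Th2-1st cells against 6628 in Th2-4th cells without stimulation, a log2 ratio of 3.54. Havcr2 read 59.6 and 703 on the same arrays, a log2 ratio of 3.56, with the first signal below the array median.

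Of the 8 genes listed as NFAT5 osmotic targets, 7 had a probe set of their own. Slc5a3, a transporter of the osmolyte myo-inositol, went from 516 to 3195 in Th2-1st and from 260 to 5346 in Th2-4th cells, log2 ratios of 2.63 and 4.36. Nfat5 itself was past 2-fold in the first of these only. Of the 7 genes 2 rose and 1 fell in each culture, beside the shares of all genes given for the calcium entry genes. Besides Slc5a3, the one that rose was Slc6a12 in Th2-1st cells, with both signals below the array median, and in Th2-4th cells Hspa1b, a heat shock protein, from 183 to 1677 (3.20), which gave 0.74 in Th2-1st cells. Slc6a6, a taurine transporter, gave -0.42 and -0.33, and Sgk1, a salt-responsive kinase, fell at -1.60 and -1.56. With GATA3 siRNA in Th2-4th cells Sgk1 rose at 1.46, Hspa4l rose at 1.16 and Hspa1b fell at -1.35, and the same genes gave 0.80, 0.74 and -0.24 in Th2-1st cells.

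**Figure D5:**
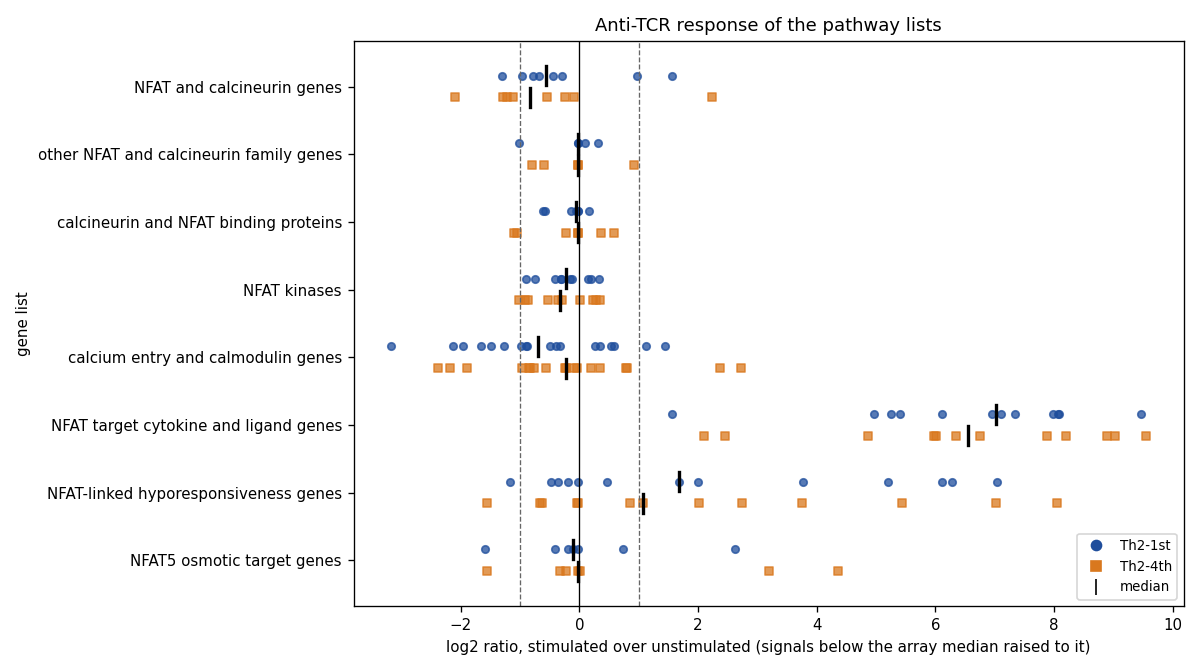
Log2 anti-TCR ratio of every measured gene of each list in Th2-1st (blue circles) and Th2-4th (orange squares) cells, with medians as black bars, 2-fold limits dashed and every signal below its array median raised to that median. All 12 cytokine and ligand genes lie right of the upper limit, the 10 NFAT kinases lie inside both limits except Mapk14 in Th2-4th cells (-1.01), and the 8 NFAT and calcineurin genes lie between -2.10 and 2.24.

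For each of the 8 genes with a log2 range over 1 across the arrays, the 3 genes of most similar profile among 12162 were found by the root mean square difference of log2 signals, each centred on its own mean over the 6 arrays. This is a description over 6 arrays. For Nfatc1 they were Ctsl (0.13), Rflna (0.19) and Ube2l6 (0.20), and for Nfatc2 Setdb2 (0.07), Fam149b (0.07) and Kifbp (0.07). For Nfatc3 they were Vamp5 (0.05), Akap17b (0.11) and Tmem18 (0.11), and for Nfat5 Bcl2l11 (0.13), Plxna2 (0.14) and Ankrd33b (0.15). Bcl2l11, which encodes the pro-apoptotic protein BIM, went from 1238 to 4006 with stimulation in Th2-1st and from 3437 to 3008 in Th2-4th cells, the same low first array as Nfat5. For Ppp3ca they were Insr (0.10), Mief2 (0.17) and Rab4a (0.18), and for Ppp3cb Cdkn2aipnl (0.07), Cert1 (0.07) and Ivd (0.07). None of the 8 genes was among the 3 nearest of another.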

How the data were processed

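RNA of 6 conditions was measured on 6 Affymetrix mouse arrays, 1 per condition. The authors deposited linear signal intensities, 1 for each probe set, made with Affymetrix Expression Console, for which no version or algorithm is named in the sources read. A trimmed mean of the deposited intensities, leaving off 2% at each end, was 500.0 on all 6 arrays. No detection call or background value was used, and the single array of each condition limits the precision.

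Log2 ratios of array pairs were computed for 6 comparisons: control cells of each culture, stimulated over unstimulated, GATA3 over control siRNA in each culture, and control cells of the Th2-4th over the Th2-1st culture, unstimulated and stimulated. Genes were named from the 34958 probe sets with 1 gene in the platform annotation (932 named several, 9211 none), with current symbols from RefSeq GRCm38.p6 for 34754 of them. Each gene was read from its probe set of highest mean log2 signal. A ratio over 2 or under 0.5, the study's own threshold, counted as a change. The spread was 1.4826 times the median absolute deviation. A simulation with planted log2 shifts of 2 checked that most of them passed the threshold and that the spread was recovered. It did not check the reported counts.

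The rule for what is named took the 8 genes with their probe sets (dim ones are given as ranges and in the plots), up to 4 genes per list and comparison with the largest ratios past 2-fold and above the array median, every gene of the other NFAT and calcineurin family list, the 3 most alike genes, Gata3, and Gsk3b, Fkbp1a, Lrrk2, Slc6a6, Slc6a12 and Il4, added for their roles after the values were seen. The members and lists were chosen with earlier results of these data known. Some listed genes had no probe set of their own and were not analysed here. Protein sequences were not used here, and no window of Nfatc1 was searched or printed. Alternatives were the mean over probe sets, the probe set of largest ratio, and omission of probe sets with names ending in _x_at, _s_at or _a_at. Others were centring, quantile normalization, a filter and a floor at the array median, and a threshold of the square root of 10. Python 3.11.15, numpy 2.4.6, pandas 2.3.3 and matplotlib 3.10.9 were used.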

Additional observations from a re-analysis of the deposited data

Results flagged for a closer look

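The second probe set of Nfatc3, 1452497_a_at, moved in opposite directions with GATA3 siRNA in the 2 cultures. It read 371 with control and 256 with GATA3 siRNA in stimulated Th2-1st cells (log2 ratio -0.54), and 169 and 224 in stimulated Th2-4th cells (0.41). The difference of 0.94 has no replicates and was not tested. The probe set standing for Nfatc3 gave 0.00 and 0.78.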

How the results depend on the processing

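Of 372 ratios of single genes recomputed under the alternatives, 318 were counted as unchanged in call. Among these were ratios past 2-fold that moved further than the spread. Nfatc1 in the Th2-4th response (2.24, spread 0.90), for example, gave 4.07 by the probe set of largest ratio. A further 14 passed the threshold newly in the same direction and 17 no longer passed it. Another 13 stayed inside 2-fold but moved further than the spread, and 10 passed the threshold in the opposite direction to a main ratio inside 2-fold. Of these 10, the mean over probe sets gave Rcan1 1.19 in the stimulated culture comparison, and the other 9 came from the probe set of largest ratio. They were Nfatc2 (2.40) in the Th2-1st response, Rcan1 (1.78) in the Th2-4th response, Nfat5 (2.10) with GATA3 siRNA in Th2-4th cells, Nfatc1 (-1.64), Rcan1 (-1.10) and Ppp3cb (-1.42) in the unstimulated culture comparison, and Nfatc2 (1.84), Nfat5 (2.33) and Rcan1 (2.56) in the stimulated one, each from a probe set below the array median on 1 or more arrays. With probe sets of a gene averaged, 0 of the 8 genes rose and 2 fell in the Th2-1st anti-TCR response, 2 fell in that of Th2-4th cells, 1 rose and 0 fell with GATA3 siRNA in the Th2-1st culture, and 2 rose in the stimulated culture comparison, where the median was 0.33. With the probe set of largest ratio, dim probe sets included, 3 rose and 3 fell in the Th2-1st response and 2 rose in that of Th2-4th cells. For any gene that choice can only add ratios past 2-fold. By that choice 2 rose and 2 fell with GATA3 siRNA in the Th2-1st culture, and 2 rose in Th2-4th cells, with a median of 0.73. It gave 3 that fell in the unstimulated culture comparison, and 4 that rose and 1 that fell in the stimulated one, with a median of 1.35. Without probe sets whose names end in _x_at, _s_at or _a_at, 6 genes were left. Of these, 0 fell in the Th2-1st response and 1 rose in the unstimulated culture comparison. All probe sets of Nfatc3 and Rcan1 have such names, so the missing fall in the Th2-1st response is the loss of Nfatc3. The ending alone does not show that a probe set cross-hybridises. Centring the arrays on their medians left 0 that rose in that comparison, and shifted the median log2 ratio of all genes there from 0.17 to -0.07, in the stimulated culture comparison from 0.10 to -0.14 and in the Th2-1st knockdown from 0.05 to -0.12. Quantile normalization gave 2 that rose and 2 that fell in the Th2-1st response. At the threshold of the square root of 10, 0 rose and 0 fell in the Th2-1st response, 1 fell in that of Th2-4th cells, 0 fell with GATA3 siRNA in the Th2-1st culture and 0 rose in the unstimulated culture comparison. The filter and the floor at the array median could change no ratio of the 8 genes, whose probe sets were above the median on every array. Each of these settings gave 48 of the 318 unchanged calls, fixed in advance. The threshold of the square root of 10 also left the ratios as they were, so a call could only be lost, and it gave 39 of the 318. Shares of all genes past the threshold are given for the main setting only. The counts under the alternatives therefore have no such share beside them. The calls closest to the limit, Ppp3ca with GATA3 siRNA in the Th2-1st culture and in the unstimulated culture comparison, rest on 1 array a condition. No paired analysis was possible because each condition has 1 array and the labels carry no replicate numbers.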
